A study of Mus musculus with 3 samples.

Results

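The AP-1 family of transcription factors was followed across 3 sorted mouse cell populations by RNA-seq, as the 10 genes Fos, Fosb, Fosl1, Fosl2, Jun, Junb, Jund, Atf3, Batf and Maff, chosen by symbol from the 23234 genes listed. Nasal double-positive cells (DP) were sorted as CD45+Ly6G+SiglecF+ from the nose 2 days after instillation of lipopolysaccharide (LPS), an outer membrane component of bacteria that sets off inflammation. Nasal neutrophils were sorted as CD45+Ly6G+SiglecF- from the nose on day 1, and blood neutrophils came from peripheral blood through an identical gate, also on day 1. All mice were wild-type C57BL/6J, aged 6 to 15 weeks, and all had received LPS through the nostrils (10 µg in a volume of 10 µL), so no group was free of LPS. There was 1 library per group, and the number of animals behind a library is not given in the labels. No difference below therefore has a test or a replicate error. For DP the day and the gate cannot be told apart from the group.

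AP-1 is a dimer of basic leucine zipper proteins, most often a Fos protein paired with a Jun protein, that binds DNA at the TPA response element or the related cyclic AMP response element. Fos and several relatives are immediate early genes: MAP kinase signalling switches on their transcription within minutes, and their mRNAs are short-lived. In neutrophils and macrophages AP-1 works beside NF-kappaB in the transcription of cytokine and chemokine genes after a bacterial stimulus. ATF3, BATF and the small Maf protein MafF are relatives that can dimerize within this network and mostly lack a strong activating domain of their own.

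Values are FPKM, fragments scaled to transcript length and to library size, so levels of different genes can be set side by side. Steps between the lowest values gave an approximate depth of 54300000 fragments in the DP library, 12800000 in the nasal neutrophil library and 53800000 in the blood neutrophil library. All 8 neutrophil markers read were at 1 FPKM or more in both nasal libraries and 7 of 8 in blood neutrophils. S100a8 was listed at 0 in blood neutrophils, where S100a9 stood at 52238 FPKM, so a value of 0 in these files can be a failed estimate. Among 8 eosinophil markers, Epx and Prg3 were at 0 in all 3 libraries. The blood library had 3 of these 8 at 1 FPKM or more, the nasal neutrophil library 2 and the DP library 1. Since a 0 can be a failed estimate, the Epx and Prg3 values do not show that eosinophils were absent. As these are bulk samples, fewer cells of a type and less RNA per cell cannot be told apart.

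All 10 members were at their highest level in nasal neutrophils. The most abundant pair, Junb and Fos, stayed near that level in DP, whereas Fosb, Fosl1, Fosl2 and Maff were at least 4-fold lower in DP. A difference was called at 4-fold on the log2(FPKM + 1) scale (a log2 ratio of 2), over the 10719 genes with a mean of 1 FPKM or more, which included all 10 members. In DP against nasal neutrophils 4 of 10 members were called lower, against 3.62% of all tested genes, and 0 of 10 were called higher, against 8.42%. In nasal against blood neutrophils 9 of 10 members were called higher, against 13.1% of tested genes, and 0 lower, against 3.23%. The count of 9 includes Fosl1, which was listed at 0 in blood neutrophils. In DP against blood neutrophils 5 of 10 members were called higher, against 24% of tested genes, and 0 lower, against 3.57%.

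**Figure D1:**
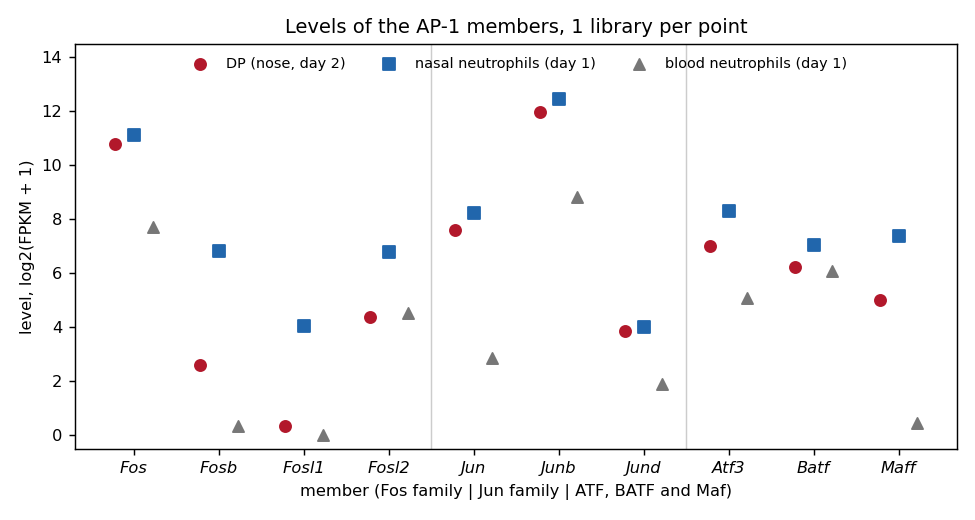
Level of each AP-1 member as log2(FPKM + 1) in DP, nasal neutrophils and blood neutrophils, with 1 point per library. The nasal neutrophil point is the highest for all 10 members, and the DP point lies close to it for Fos, Junb, Jun and Jund and far below it for Fosb and Fosl1.

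The Fos proteins, which cannot form stable dimers with each other and bind DNA with a Jun partner, divided most clearly. Fos, the founding member with a strong activating domain, stood at 1776 FPKM in DP cells, 2214 FPKM in nasal neutrophils and 209.7 FPKM in blood neutrophils. It ranked 36th of all listed genes in DP cells, 40th in nasal neutrophils and 396th in blood neutrophils. Its log2 ratio was -0.32 for DP against nasal neutrophils, 3.39 for nasal against blood neutrophils, while DP cells against blood gave 3.08. Both nasal libraries were thus high and close together for Fos, with the blood library low. Fosb, the member closest to Fos in build and also an activator, stood at 5.08 FPKM in DP cells, 112.3 FPKM in nasal neutrophils and 0.28 FPKM in blood neutrophils. Here the nasal neutrophil library was the highest by far. Fosb was 22.1-fold lower in DP than in nasal neutrophils as a ratio of deposited FPKM. Its log2 ratio, which like all such ratios here was taken on FPKM + 1, was -4.22. Of the 10719 tested genes 38 had a lower ratio. Against blood neutrophils Fosb in DP was still 18.1-fold higher in deposited FPKM, with a log2 ratio of 2.25. The blood value of Fosb rested on about 57 fragments and the DP value on about 1045.

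Fosl1 and Fosl2, which encode Fra-1 and Fra-2 and lack the activating domain of Fos, followed Fosb rather than Fos in DP. Fosl1 stood at 0.27 FPKM in DP cells and 15.6 FPKM in nasal neutrophils with a listing of 0 in blood neutrophils, and its log2 ratio for DP against nasal neutrophils was -3.71. The DP value of Fosl1 rested on about 27 fragments. In the GENCODE annotation up to 1055 nt of a Fosl1 exon lie under an exon of Ccdc85b on the other strand, and Ccdc85b itself stood at 1.18 FPKM in DP cells, 15.8 FPKM in nasal neutrophils and 1.85 FPKM in blood neutrophils. Without strand information, which the sources used here do not give, reads of Fosl1 and Ccdc85b cannot be told apart in that stretch, so the Fosl1 values are uncertain. Fosl2 stood at 19.7 FPKM in DP cells, 110.6 FPKM in nasal neutrophils and 22.2 FPKM in blood neutrophils. For Fosl2 the DP and blood libraries were at about the same level, with log2 ratios of -2.43 for DP against nasal neutrophils and -0.16 for DP against blood neutrophils, although the second was -1.11 when ratios were centred on the median of all tested genes.

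The promoters of Fos and Fosb are shown because these close relatives differed little and much between the nasal libraries. Promoter windows from 250 bases before to 50 after the start site came from RefSeq on GRCm38.p6, another build than the mm9 genome of the authors' values. They were found for 9 of the 10 members and not for Fosl1. The motifs searched on both strands were TGACG (the core of the cyclic AMP response element), the whole element TGACGTCA (which holds TGACG on both strands), the TPA response element TGANTCA, the TATA box TATAAA, the CArG box and the NF-kappaB site. Capitals mark their matches.
Fos, chr12:85473640-85473939, plus strand: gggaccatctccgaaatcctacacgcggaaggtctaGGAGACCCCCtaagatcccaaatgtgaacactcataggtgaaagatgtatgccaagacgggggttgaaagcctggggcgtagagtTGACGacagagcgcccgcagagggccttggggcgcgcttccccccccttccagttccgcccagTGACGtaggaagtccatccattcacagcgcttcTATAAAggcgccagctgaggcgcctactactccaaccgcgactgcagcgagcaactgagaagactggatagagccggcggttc
Fosb, chr7:19309996-19310295, minus strand: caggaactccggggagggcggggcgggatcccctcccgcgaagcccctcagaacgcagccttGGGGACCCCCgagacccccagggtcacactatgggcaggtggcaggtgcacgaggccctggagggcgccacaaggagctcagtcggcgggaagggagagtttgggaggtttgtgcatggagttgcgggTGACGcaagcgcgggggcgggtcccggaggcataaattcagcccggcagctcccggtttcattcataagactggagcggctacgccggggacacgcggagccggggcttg
The Fos window held TGACG at bases -129 to -125 and at -66 to -62 before the start site, and TATAAA at -33 to -28. The Fosb window held TGACG at bases -60 to -56 and no exact TATAAA. Near matches to TATAAA were not searched, and the Fosb window does hold cataaa, which differs in 1 base. Each window also held 1 match to the NF-kappaB site on the strand opposite the gene. Over all 32851 promoter windows TGACG was present in 20.8%, TATAAA in 13.6% and the NF-kappaB site in 4.51%. The 9 members have 11 windows between them, of which 7 held TGACG, 4 the NF-kappaB site and 2 TATAAA. Counted by gene, TGACG was present for 6 of the 9 members (Fos, Fosb, Junb, Atf3, Batf and Maff), against 23% of all genes with a window. The NF-kappaB site was present for 4 members (Fos, Fosb, Fosl2 and Maff), against 5.14% of genes, and TATAAA for 2 (Fos and Junb), against 15.7%. TGANTCA, found in 7.81% of all windows, and the CArG box, found in 1.63%, matched in 0 of the 11 member windows. Bases more than 250 before the start site were not searched, so a count of 0 does not show that a member lacks the motif. These matches describe the letters only and are not evidence of binding.

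The Jun proteins, which pair with each other as well as with Fos proteins, kept together between the nasal libraries. Junb, a Jun protein with weaker activating capacity than c-Jun, was the most abundant member everywhere, at 4022 FPKM in DP cells, 5641 FPKM in nasal neutrophils and 459 FPKM in blood neutrophils. It ranked 16th of all listed genes in DP cells, 14th in nasal neutrophils and 204th in blood neutrophils. Its log2 ratio was -0.49 for DP against nasal neutrophils and 3.62 for nasal against blood neutrophils, so its 3 values kept nearly the same proportions as those of Fos. Jun, which encodes c-Jun, the classic partner of Fos, stood at 191.5 FPKM in DP cells, 302.9 FPKM in nasal neutrophils and 6.32 FPKM in blood neutrophils. In both nasal libraries Jun was far above blood neutrophils, with log2 ratios of 4.72 for DP and 5.38 for nasal neutrophils. Jund, a Jun protein made at a steadier level in many cells, stood at 13.7 FPKM in DP cells, 15 FPKM in nasal neutrophils and 2.72 FPKM in blood neutrophils. Its ratio of -0.13 for DP against nasal neutrophils was the closest to 0 among the members, and its ratio of 1.98 for DP against blood neutrophils lay just under the 4-fold threshold. Junb shares 173 nt of exon with Prdx2 on the other strand, which stood at 87.7 FPKM in DP cells, 44.5 FPKM in nasal neutrophils and 15.5 FPKM in blood neutrophils, all far below Junb. Jun and Jund overlap antisense transcripts (Junos and Gm11175) for 232 and 543 nt, which are not analysed here.

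The Junb promoter is shown beside those of Fos and Fosb as that of the member with the nearest profile to Fos.
Junb, chr8:84978699-84978998, minus strand: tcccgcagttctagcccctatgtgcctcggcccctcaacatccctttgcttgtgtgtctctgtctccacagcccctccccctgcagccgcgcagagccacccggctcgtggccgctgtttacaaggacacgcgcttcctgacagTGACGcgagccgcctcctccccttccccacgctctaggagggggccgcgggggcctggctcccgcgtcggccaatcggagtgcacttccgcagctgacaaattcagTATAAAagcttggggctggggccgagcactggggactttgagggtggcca
The Junb window held TGACG at bases -106 to -102 before the start site and, at the annotated start itself, TATAAA at bases 1 to 6. The distance between the centred log2 profiles of Fos and Junb was 0.16, the smallest of all pairs of members.

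Atf3, Batf and Maff each behaved differently. Atf3, which encodes a stress-induced factor that restrains cytokine transcription after Toll-like receptor signals, stood at 127.4 FPKM in DP cells, 312.7 FPKM in nasal neutrophils and 33.1 FPKM in blood neutrophils. DP lay between the other libraries for Atf3, with a log2 ratio of -1.29 against nasal neutrophils and of 1.91 against blood neutrophils, neither of which reached 4-fold. Batf, which encodes a short protein that pairs with Jun proteins and joins IRF factors on DNA, varied least across the libraries among the members, at 74.1 FPKM in DP cells, 133.1 FPKM in nasal neutrophils and 67.6 FPKM in blood neutrophils. None of the 3 comparisons reached 4-fold for Batf, and its log2 ratio for DP against blood neutrophils, 0.13, turned to -0.82 when ratios were centred on the median of all tested genes. Maff, a small Maf protein that binds Maf recognition elements with partners such as Nrf2 and Bach1, stood at 31.3 FPKM in DP cells, 165.2 FPKM in nasal neutrophils and 0.38 FPKM in blood neutrophils. Maff had the largest ratio of all members for nasal against blood neutrophils, 6.91 on the log2 scale, and 47 of the 10719 tested genes had a higher one. Its blood value rested on about 40 fragments. As ratios of deposited FPKM, Maff in DP was 5.27-fold lower than in nasal neutrophils and still 81.6-fold higher than in blood neutrophils. The log2 ratios on FPKM + 1, which understate the second because the blood value is below 1 FPKM, were -2.36 for DP against nasal neutrophils and 4.55 for DP against blood neutrophils.

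The Maff promoter is shown because 1 of its 3 RefSeq windows was the only member window with the whole cyclic AMP response element, a motif present in 1.79% of all windows.
Maff, chr15:79347270-79347569, plus strand: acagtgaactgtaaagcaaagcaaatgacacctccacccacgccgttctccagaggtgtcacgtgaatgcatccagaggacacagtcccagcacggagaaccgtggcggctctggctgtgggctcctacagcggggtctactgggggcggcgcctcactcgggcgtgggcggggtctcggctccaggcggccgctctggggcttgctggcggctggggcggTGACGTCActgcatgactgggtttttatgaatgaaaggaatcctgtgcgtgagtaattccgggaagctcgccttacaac
TGACGTCA lay at bases -29 to -22 before this start site. Which of the 3 Maff start sites was in use in these cells is not known from gene-level values.

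Across the members, the median log2 ratio for DP against nasal neutrophils was -1.06, against 0.57 over all tested genes, with a range from -4.22 (Fosb) to -0.13 (Jund). All 10 members were lower in DP, as were 30.3% of all tested genes. Relative to the median of all tested genes, the ratio of Fos was -0.89, that of Junb -1.06, that of Jun -1.23 and that of Fosb -4.79. For nasal against blood neutrophils the members' median was 3.51, against 0.41 over all tested genes, with a range from 0.97 (Batf) to 6.91 (Maff). All 10 were higher in nasal neutrophils, as were 62.1% of tested genes. For DP against blood neutrophils the members' median was 2.11, against 0.95 over all tested genes, and with ratios centred on that value it was 1.16. The 3 comparisons share libraries, so their values are not independent of each other.

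**Figure D2:**
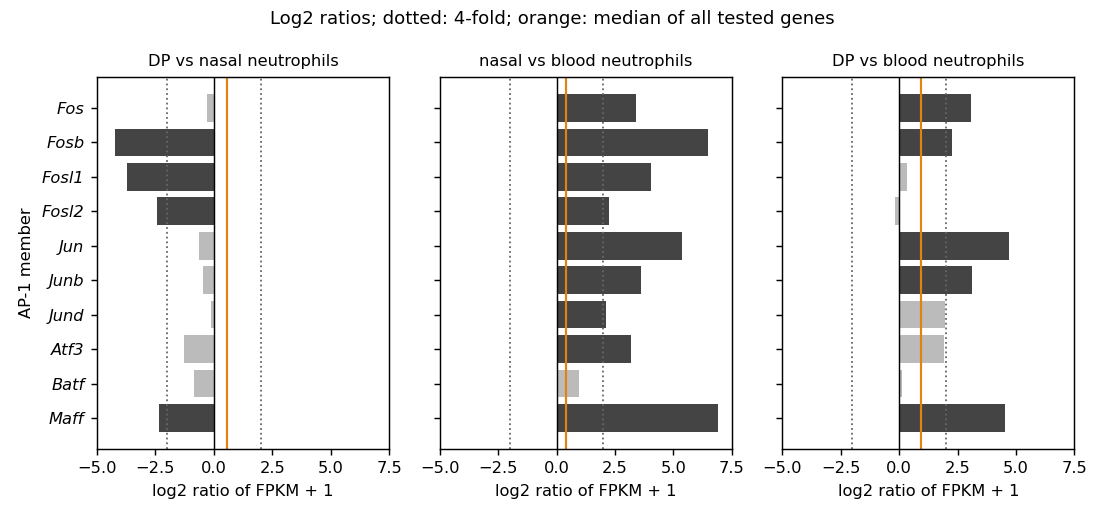
Log2 ratio of FPKM + 1 for each AP-1 member in the 3 comparisons, with dark bars at 4-fold or more, dotted lines at 4-fold and an orange line at the median of all tested genes. In DP against nasal neutrophils the dark bars are Fosb, Fosl1, Fosl2 and Maff, whereas in nasal against blood neutrophils every bar but that of Batf is dark.

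The make-up of the family, as shares of summed FPKM, shifted among the Fos genes between the nasal libraries, while among the Jun genes the share of Jun was lower in blood neutrophils than in either nasal library. Fos held 98.6% of the Fos family sum in DP cells, 90.3% in nasal neutrophils and 90.3% in blood neutrophils. What remained differed between the SiglecF-negative libraries: Fosb held 4.58% and Fosl2 4.51% in nasal neutrophils, whereas in blood neutrophils Fosl2 held 9.56% and Fosb 0.12%. In DP Fosl2 held 1.1% and Fosb 0.28%. Fos transcripts per Fosb transcript, as a ratio of FPKM, numbered 349 in DP cells, 19.7 in nasal neutrophils and 746 in blood neutrophils. Among the Jun genes Junb held 95.1% of the sum in DP cells, 94.7% in nasal neutrophils and 98.1% in blood neutrophils. Jun held 4.53% in DP cells, 5.08% in nasal neutrophils and 1.35% in blood neutrophils. Summed, the Fos genes came to 0.43 times the Jun genes in DP cells, 0.41 times in nasal neutrophils and 0.5 times in blood neutrophils, so the balance of the families was similar while their levels differed widely. All 10 members together held 0.98% of all FPKM in DP cells, 1.45% in nasal neutrophils and 0.12% in blood neutrophils.

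**Figure D3:**
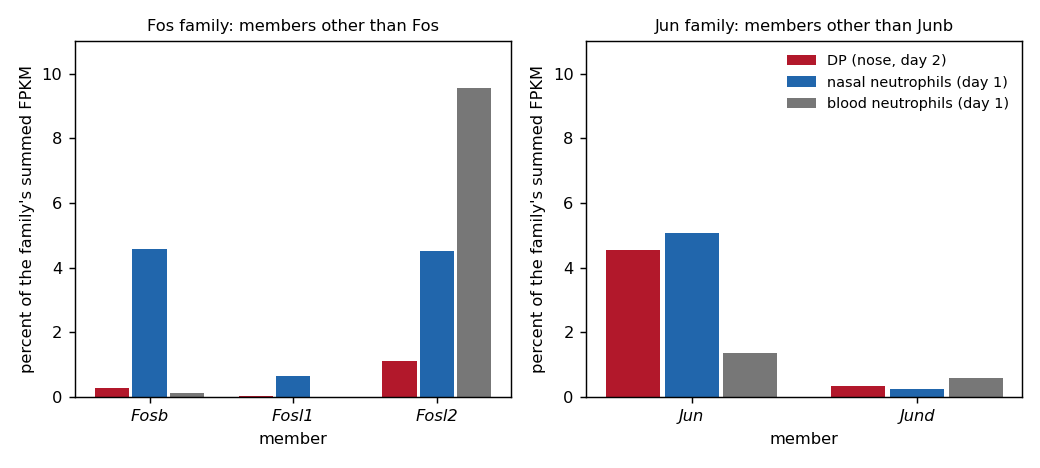
Share of the summed FPKM of the Fos family (left, without Fos) and of the Jun family (right, without Junb) held by each other member, as bars for DP, nasal neutrophils and blood neutrophils. Fosb reaches 4.58% in nasal neutrophils and stays under 1% in the other libraries, and Fosl2 is highest in blood neutrophils at 9.56%.

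Placed on the log2 distance from blood neutrophils (0%) to nasal neutrophils (100%), DP lay at 93.8% for Jund, 90.6% for Fos, 87.7% for Jun and 86.5% for Junb. Maff, at 65.8%, and Atf3, at 59.7%, were intermediate, and Fosb lay at 34.8%. Batf lay at 13.5%, Fosl1 at 8.48% and Fosl2 at -7.17%, that is, slightly below blood neutrophils. As reported, all 3 Jun genes and Fos lay at 86.5% or more, and the other 3 Fos genes at 34.8% or less. These bounds are the members' own values, and the share of all tested genes beyond them was not computed. The places of Fosb, Fosl1 and Maff, each below 1 FPKM in blood neutrophils, depend on the 1 FPKM added before taking logs. With 0.1 FPKM added, Fosb had log2 ratios against blood neutrophils of 3.77 in DP and 8.2 in nasal neutrophils. Those of Fosl1 were 1.88 and 7.29. Both genes then lay further from blood neutrophils than as reported, but still nearer to blood than to nasal neutrophils. Maff, with 6.02 and 8.42, also moved toward nasal neutrophils. With 5 FPKM added the same ratios were 0.93 and 4.47 for Fosb, 0.08 and 2.04 for Fosl1, and 2.75 and 4.98 for Maff. Each of these genes then lay further toward blood neutrophils than as reported. With ratios centred on the median of all tested genes, a choice made after seeing the data, the places were lower than as reported. They were 75.8% for Jun, 71.2% for Fos, 67.9% for Junb, 60.4% for Jund, 55.3% for Maff, 34.4% for Atf3 and 21.4% for Fosb. Fosl1, at -16.7%, Fosl2, at -60.1%, and Batf, at -147%, then lay below blood neutrophils. Jund and Maff were then close to each other. For Batf the whole distance was under 2-fold, so its place on it is the least informative.

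**Figure D4:**
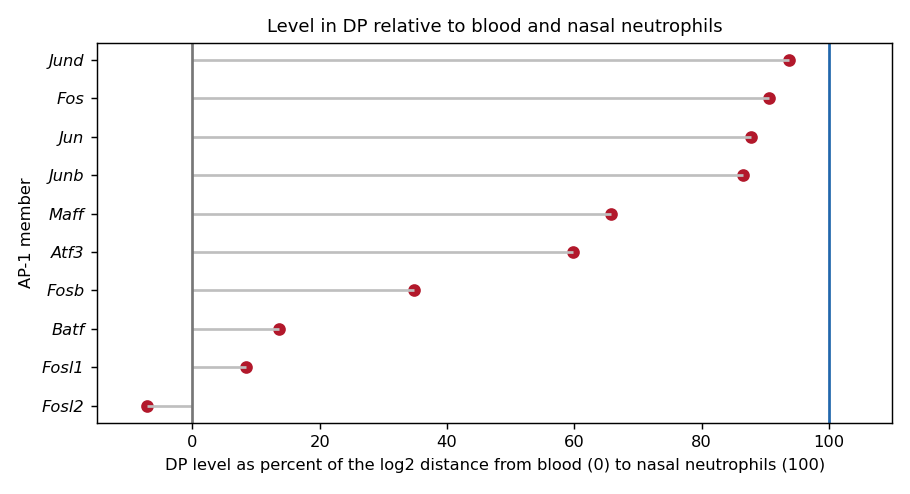
Level of each AP-1 member in DP as a percentage of the log2(FPKM + 1) distance from blood neutrophils (grey line, 0%) to nasal neutrophils (blue line, 100%). Jund, Fos, Jun and Junb lie between 86.5% and 93.8%, and Fosl2 lies below 0%.

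Within each library the order of the members changed below the leading pair. Junb was first and Fos second in all 3 libraries. In DP they were followed by Jun, Atf3, Batf, Maff, Fosl2, Jund, Fosb and Fosl1. In nasal neutrophils Atf3 and Jun came next at nearly the same level (312.7 and 302.9 FPKM), then Maff, Batf, Fosb, Fosl2, Fosl1 and Jund. In blood neutrophils Batf took the third place, ahead of Atf3, Fosl2, Jun, Jund, Maff, Fosb and Fosl1. With 1 library per group, neighbours such as Fosb and Fosl2 in nasal neutrophils, at 112.3 and 110.6 FPKM, cannot be ordered.

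Relatives of the members were read from lists of known genes. The small Maf genes moved like Maff in DP: Mafg stood at 4.16 FPKM in DP cells, against 36.6 FPKM in nasal neutrophils, and Mafk at 6.11 against 39.7. In blood neutrophils Mafg stood at 16.4 FPKM and Mafk at 11, so neither had the very low blood level of Maff. Of 7 tested genes among 11 Maf proteins and their CNC partners, these 2 were at least 4-fold lower in DP than in nasal neutrophils. None of the 7 was called higher, and the median log2 ratio was -1.61. Among all tested genes 3.62% were called lower and 8.42% higher. The partner gene Nfe2 was highest in blood neutrophils, at 16 FPKM in DP cells, 65.4 FPKM in nasal neutrophils and 184.3 FPKM in blood neutrophils. Of 13 ATF, CREB and BATF relatives, 1 was called lower in DP against nasal neutrophils and 0 higher (median -0.53), beside 3.62% and 8.42%. That gene was Atf5, a stress-responsive factor, at 10.1 FPKM in DP cells, 49.7 FPKM in nasal neutrophils and 0.69 FPKM in blood neutrophils. Atf1, a CREB-like activator, was higher in DP, at 86.8 FPKM against 31.7 in nasal neutrophils, without reaching 4-fold. For nasal against blood neutrophils 2 of the 13 relatives (Atf5 and Crem) and 0 of the 7 Maf and CNC genes were called higher. Both counts are too small to set either list apart from the 13.1% of all tested genes called higher.

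Upstream of AP-1, 25 of 27 MAP kinases and kinases above them were tested, as a description of the pathway. Against nasal neutrophils 1 of 25 was at least 4-fold higher in DP, beside 8.42% of all tested genes, and 2 of 25 were lower, beside 3.62%, with a median log2 ratio of -0.09. Braf, a kinase of the ERK pathway, stood at 28.2 FPKM in DP cells, against 5.28 FPKM in nasal neutrophils. Map3k11, a kinase of the JNK pathway, stood at 6.91 FPKM in DP against 36.2, and Map2k3, which activates p38, at 30.5 against 124.9. Map3k8, which encodes Tpl2, the kinase that links Toll-like receptors to ERK, was high in both nasal libraries, at 180.4 FPKM in DP cells and 111 FPKM in nasal neutrophils, against 21.8 in blood neutrophils. For nasal against blood neutrophils 2 of the 25 kinases were at least 4-fold higher (Map3k8 and Map3k11) and 1 lower (Mapk14, which encodes p38 alpha, at 17.3 FPKM against 74.3), beside 13.1% and 3.23% of tested genes. For DP against blood neutrophils 4 of the 25 were at least 4-fold higher and 0 lower, beside 24% and 3.57%. These were Map3k8 and, named after their values were seen, Mapk9, Mapk10 and Mapk11, which encode kinases of the JNK and p38 groups and stood at 8.86, 4.54 and 4.08 FPKM in DP cells, against 0.77, 0 and 0.05 FPKM in blood neutrophils. SRF is the factor that binds CArG boxes. Of 5 tested genes for its cofactors 0 differed by 4-fold between DP and nasal neutrophils, beside 12% of all tested genes. Between nasal and blood neutrophils the count was also 0, beside 16.4%. For DP against blood neutrophils 1 of the 5 was called higher and 1 lower, beside 24% and 3.57% of all tested genes. Elk3, an ETS-domain partner of SRF named after its values were seen, was the higher one, at 8.19 FPKM in DP cells, 4.46 FPKM in nasal neutrophils and 0.86 FPKM in blood neutrophils. The lower one was Mkl1: an actin-sensing cofactor, stood at 1.39 FPKM in DP cells, 7.09 FPKM in nasal neutrophils and 13.2 FPKM in blood neutrophils.

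Proteins that bind AU-rich elements, which mark the mRNAs of Fos and other immediate early genes for decay, included 3 genes that were highest in nasal neutrophils, as the members were. Zfp36, which encodes tristetraprolin, stood at 1464 FPKM in DP cells, 5423 FPKM in nasal neutrophils and 400.5 FPKM in blood neutrophils. Zfp36l1 stood at 78.5 FPKM in DP cells, 273.8 FPKM in nasal neutrophils and 26.9 FPKM in blood neutrophils. Zfp36l2 stood at 16.2 FPKM in DP cells, 74.6 FPKM in nasal neutrophils and 14.2 FPKM in blood neutrophils. All 3, out of 6 in the list, were at least 4-fold higher in nasal than in blood neutrophils, beside 13.1% of all tested genes. Zfp36l2 was at least 4-fold lower in DP than in nasal neutrophils, beside 3.62% of tested genes. The other 3, Elavl1 (18.7 FPKM in DP cells, 12.1 FPKM in nasal neutrophils and 6.88 FPKM in blood neutrophils), Khsrp and Hnrnpd, were instead highest in DP and reached 4-fold in none of the 3 comparisons. Khsrp and Hnrnpd, named after their values were seen, stood at 1.74 and 2.07 FPKM in DP cells, 1.2 and 0.83 FPKM in nasal neutrophils, and 0.28 and 0.63 FPKM in blood neutrophils.

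Many genes with described AP-1 sites were higher in nasal than in blood neutrophils. Beside 13.1% of all tested genes higher and 3.23% lower, 9 of the 13 tested (18 listed) were called higher and 0 lower (median 3.27). Several of these genes also have NF-kappaB sites, so the list does not single out AP-1. Ptgs2, which encodes an inducible prostaglandin synthase, stood at 263.7 FPKM in DP cells, 738.4 FPKM in nasal neutrophils and 2.01 FPKM in blood neutrophils. Tnf stood at 60.3 FPKM in DP cells, 372.7 FPKM in nasal neutrophils and 1.89 FPKM in blood neutrophils. In DP against nasal neutrophils 3 of the 13 were called lower and 0 higher (median -1.41), beside 3.62% and 8.42% of all tested genes. The 3 were Tnf, Il6 (1.14 FPKM against 20.1) and the adhesion receptor gene Cd44 (72.7 against 371.6).

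**Figure D5:**
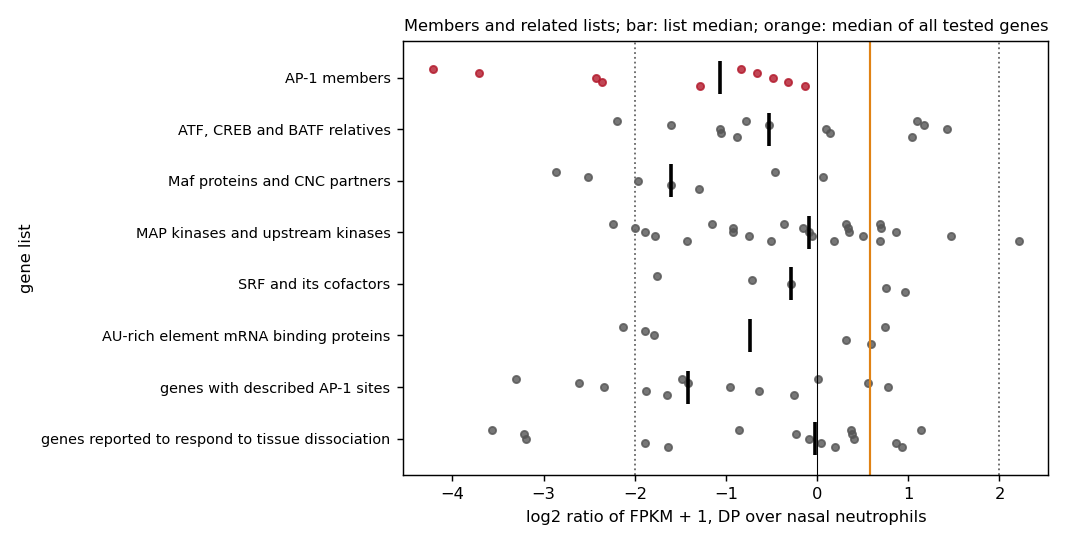
Log2 ratio of FPKM + 1 for DP over nasal neutrophils, with 1 point per tested gene for the AP-1 members (red) and 7 related lists (grey), a black bar at each list median, dotted lines at 4-fold and an orange line at the median of all tested genes. All 10 AP-1 points lie below 0, and the lowest 2 are Fosb and Fosl1.

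The genes with the most similar profile were sought among 6252 genes with a mean of 5 FPKM or more, by the Euclidean distance of log2(FPKM + 1) values centred on each gene's mean over the 3 libraries. With 3 libraries such a likeness is weak. It also depends on the 1 FPKM added before taking logs. A gene below 1 FPKM in blood neutrophils can lie near a member without having the same proportions of FPKM. Among the genes named below, blood values were for example 0.68 FPKM for Ggta1, 0.08 for Sparc, 0.02 for Bpifb6 and 0 for Npdc1. The genes nearest to Fosb were Nfkbiz (distance 0.42), Olr1 (0.49) and Cxcl10 (0.53), and those nearest to Maff were Tnf (0.18), Hilpda (0.32) and Cxcl1 (0.33). Sqstm1 lay nearest to Fosl1 (0.22), with Per1 (0.34) and Serpinb2 (0.4) behind it. Fos lay nearest to Ggta1 (0.01), Pdzk1ip1 (0.1) and Sparc (0.1), and Jun to Bpifb6 (0.06), Clu (0.19) and Bcl2a1d (0.26). Junb lay nearest to Npdc1 (0.07), Sparc (0.07) and Insig1 (0.1), Jund to Dnajb9 (0.04), Slc25a33 (0.04) and Sntb2 (0.05), and Atf3 to Rbpms (0.04), Ccr2 (0.11) and Tnfaip2 (0.13). Batf lay nearest to Chd4 (0.05), Usp38 (0.05) and Acadl (0.06). For Fosl2 they were Mir1906-1 (0.13), Tle3 (0.14) and S100a4 (0.16).

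Markers of neutrophils and of other cells differed between nose and blood and also between DP and nasal neutrophils, and their part in the AP-1 values was not tested. In DP against nasal neutrophils 4 of 8 neutrophil markers were at least 4-fold lower and 0 higher (median log2 ratio -2.57), as were 3 of 4 tested B cell markers (median -2.07). Among all tested genes 3.62% were called lower and 8.42% higher. Of 6 tested monocyte and dendritic cell markers 1 was called lower in DP than in nasal neutrophils and 0 higher (median -0.94). The lower one, the monocyte gene Ly6c2, stood at 10.4 FPKM in DP cells, 261.7 FPKM in nasal neutrophils and 168.1 FPKM in blood neutrophils. Itgax went the other way, at 55.4 FPKM in DP cells, 14.3 FPKM in nasal neutrophils and 5.34 FPKM in blood neutrophils. The 7 olfactory markers summed to 1873 FPKM in DP cells, 1816 FPKM in nasal neutrophils and 0.58 FPKM in blood neutrophils, where 5 of 7 were listed at 0 (Omp, Cnga2, Gng13, Gap43 and Cyp2g1). Obp1a made up most of both nasal sums, at 1073 FPKM in DP cells against 1329 in nasal neutrophils. Of the 7, 2 were called higher in DP and 0 lower. These were Gng13, at 217.1 FPKM against 47.3, and Gap43, at 49.7 against 9.96, whereas Adcy3 stood at 7.39 against 24.6. The 7 epithelial markers summed to 663.4 FPKM in DP cells, 289.1 FPKM in nasal neutrophils and 1.17 FPKM in blood neutrophils, with Epcam, Krt5 and Foxj1 at 0 in blood neutrophils. They did not move together between the nasal libraries: of 6 tested, 1 was called higher in DP (Bpifa1) and 1 lower (Foxj1). Krt18 stood at 289.7 FPKM in DP cells against 131.9 in nasal neutrophils and Bpifa1 at 272.6 against 38.2. Krt8 stood at 68.1 against 76.4 and Foxj1 at 0.36 against 6.04. The 8 macrophage markers with a row summed to 735.6 FPKM in DP cells, 1006 FPKM in nasal neutrophils and 550.1 FPKM in blood neutrophils, where C1qa, C1qb, C1qc and Mertk were at 0. The 8 monocyte and dendritic cell markers summed to 375.2 FPKM in DP cells, 797.9 FPKM in nasal neutrophils and 282.8 FPKM in blood neutrophils, with Zbtb46 at 0 in blood neutrophils. The 8 stromal and endothelial markers summed to 28.3 FPKM in DP cells, 22.4 FPKM in nasal neutrophils and 5.92 FPKM in blood neutrophils, with Col3a1, Pdgfra and Cdh5 at 0 in blood neutrophils. Most of the DP sum came from Dcn, at 21.7 FPKM in DP cells against 7.54 in nasal neutrophils. Pecam1 went the other way, at 4.06 FPKM against 7.73. Of the 3 tested, 0 were called higher and 0 lower between the nasal libraries. The 7 T and NK cell markers summed to 20.6 FPKM in DP cells, 8.34 FPKM in nasal neutrophils and 13.9 FPKM in blood neutrophils. The 5 B cell markers summed to 4.75 FPKM in DP cells, 43.5 FPKM in nasal neutrophils and 63.4 FPKM in blood neutrophils, with Pax5 at 0 in DP cells. The 8 eosinophil markers summed to 3.21 FPKM in DP cells, 14.2 FPKM in nasal neutrophils and 6.86 FPKM in blood neutrophils. The 8 neutrophil markers summed to 12267 FPKM in DP cells, 53299 FPKM in nasal neutrophils and 78085 FPKM in blood neutrophils. Without S100a8, listed at 0 in blood neutrophils, the other 7 summed to 4611 FPKM in DP cells and 23481 FPKM in nasal neutrophils, against that same blood sum, a choice made after seeing the data. Fos and Jun genes are widely expressed, in olfactory and epithelial cells among others.

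Immediate early genes are known to respond to the handling of tissue. Of 16 immediate early and heat shock genes reported to respond to dissociation, 12 were called higher in nasal than blood neutrophils and 0 lower. Among all tested genes the shares were 13.1% and 3.23%. For DP against blood neutrophils 10 of the 16 were called higher and 0 lower (median 2.98), beside 24% and 3.57% of all tested genes. The part of handling in the AP-1 values was not tested. Egr1 stood at 385.4 FPKM in DP cells, 1198 FPKM in nasal neutrophils and 0.17 FPKM in blood neutrophils, and Nr4a1 at 968.6 FPKM in DP cells, 1138 FPKM in nasal neutrophils and 12.4 FPKM in blood neutrophils. Between the nasal libraries the list differed within itself (median -0.02). Beside 8.42% of all tested genes called higher in DP and 3.62% lower, 0 of the 16 were higher and 3 lower. Those were Ier3, at 116.5 FPKM in DP cells, against 1394 FPKM in nasal neutrophils, and the heat shock genes Hspa1a, at 21.6 against 208.9, and Hspa1b, at 9.97 against 99.4, whose reads may be divided between near-identical copies. Nr4a1, like Fos, was close in both nasal libraries (log2 ratio -0.23), while Ier3, like Fosb, was much lower in DP (log2 ratio -3.57).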

How the data were processed

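RNA-seq gene tables of 3 sorted mouse populations, 1 library each, were used as the authors deposited them. Values are FPKM made by the authors; the submitters' processing notes name Cufflinks 2.1.1, TopHat2 2.0.8 and Bowtie2 2.1.0 and the genome build mm9, without roles or settings. The file headers do not name the unit, which was taken from the Cufflinks column name and the values. Groups came from the labels. Members and gene lists were chosen with earlier results of these data known, and a few list genes are not reported here.

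Values above 0 and below 1e-06 FPKM (32 in DP, 20 in nasal and 43 in blood neutrophils) were set to 0. Log2 ratios were taken on FPKM + 1, which understates ratios of low genes, and called at 4-fold over 10719 genes; without replicates no test was run. Depth was read from the commonest low value times transcript length over 2010 single-transcript genes longer than 1500 nt (62, 69 and 49 genes within 6% of it in DP, nasal and blood neutrophils). Fragment numbers use the longest coding transcript of GENCODE M21 and are approximate, as is the depth. List genes were named if among the 4 largest absolute ratios in DP against nasal or nasal against blood neutrophils at a mean of 5 FPKM or more; Epx, Prg3, Ccdc85b, Prdx2, Mapk9, Mapk10, Mapk11, Elk3, Khsrp, Hnrnpd and markers listed at 0 were named outside that rule. The calling step was checked on artificial inputs. Alternatives were other pseudocounts, filters, scalings and thresholds. Python 3.11.15, numpy 2.4.6, pandas 2.3.3 and matplotlib 3.10.9 were used.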

Additional observations from a re-analysis of the deposited data

How the results depend on the processing

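No paired analysis was possible because each group has 1 library, and for the same reason no library could be left out. Over pseudocounts of 0.1 and 5 FPKM, no filter, a mean of 5 FPKM or more, rescaling to a sum of 1000000, centring on the median, upper-quartile scaling, omission of genes at 0 in either library and a correction for transcript length chosen after seeing the data, members at least 4-fold lower in DP than in nasal neutrophils numbered 3 to 4, against 1.67% to 7.21% of all genes tested under each setting. Members at least 4-fold higher in nasal than in blood neutrophils numbered 7 to 9 (4.38% to 26.9% of all) and those higher in DP than in blood neutrophils 4 to 6 (8.78% to 35.9%), the 2-fold threshold aside. With a 2-fold threshold the counts were 5, 9 and 7, against 11.3%, 33.5% and 48.6% of tested genes. The median log2 ratio of the members for DP against nasal neutrophils was -1.72 with upper-quartile scaling, against -1.06 as reported. For DP against blood neutrophils it was 1.16 with centred ratios and 1.52 with upper-quartile scaling, against 2.11 as reported. Among ratios of single members, Fosl1 in DP against nasal neutrophils was -1.96 with a pseudocount of 5 FPKM, and Fosb in DP against blood neutrophils was 0.93 with that pseudocount, 1.3 with centred ratios and 1.78 with upper-quartile scaling. For nasal against blood neutrophils the centred ratios of Fosl2 and Jund were 1.85 and 1.7, under the threshold; Jund was also under it at 1.38 with a pseudocount of 5 FPKM and 1.93 with the length correction. In DP against blood neutrophils Jund passed it at 2.28 with a pseudocount of 0.1 FPKM and 2.13 with rescaled values. The sign of a member's ratio changed only for DP against blood neutrophils, for Fosl1, Fosl2 and Batf, which were within 2-fold there as reported; Fosl2 reached -1.11 with centred ratios and Fosl1 1.88 with a pseudocount of 0.1 FPKM. The values resting on the fewest fragments were Fosl1 in blood neutrophils (listed at 0) and in DP (about 27), Maff in blood neutrophils (about 40) and Fosb in blood neutrophils (about 57).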
